A study of Mus musculus with 6 samples.

Results

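Plasminogen, its activators, the urokinase receptor and 3 serpins that inhibit the system were followed in mouse primary hepatocytes given LRG1 protein. The 7 genes were chosen by name from the 22609 gene rows of the count files: Plg, Plau, Plat, Plaur, Serpine2, Serpinb2 and Serpinf2. Earlier results of these data were known when they were chosen. LRG1 (leucine-rich alpha-2-glycoprotein 1) circulates in plasma, and the study's title calls it an adipokine, a factor released by fat tissue, that acts on liver fat and insulin action. The treatment was made to see what the protein does to hepatocyte gene expression.

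Hepatocytes of 4-month-old male wild-type mice on a C57BL/6 background were kept for 16 h with 20 µg/mL LRG1 (3 samples) or with PBS, phosphate-buffered saline, as the control (3 samples). Both groups were cultured cells taken out of the liver, and no animal was treated. Poly(A) RNA was sequenced as single-end reads of 50 bases. The labels do not state whether samples of one treatment were separate mice or separate dishes, so the spread behind each p-value may be technical.

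Plasminogen is the inactive precursor of plasmin, the serine protease that dissolves fibrin and cleaves matrix proteins, and the liver is its main source. Urokinase (Plau) and tissue-type plasminogen activator (Plat) cut plasminogen into plasmin, urokinase mostly at cell surfaces where its receptor Plaur holds it, and tissue-type activator mostly on fibrin. Serpins, inhibitors that trap a protease in a covalent complex, act at both steps. Protease nexin-1 (Serpine2) inhibits thrombin, urokinase and other serine proteases, plasminogen activator inhibitor 2 (Serpinb2) inhibits mainly urokinase, and alpha2-antiplasmin (Serpinf2), another liver product, inhibits plasmin itself.

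Libraries held 18625748 to 23036332 counts in genes. Across genes, Pearson's r between log2 levels was 0.995 to 0.996 for 2 libraries of the same treatment and 0.958 to 0.962 otherwise, and no 2 replicates agreed within sampling noise (chi-square over its degrees of freedom, 2.93 to 4.17). Hepatocyte markers were abundant, with a summed level of 22611 to 23600 CPM (a count divided by its library's TMM-scaled size, on a common scale) in PBS libraries and 21861 to 22759 CPM in LRG1 libraries. Most of this sum was Alb, at 19235 CPM on average with PBS and 18555 CPM with LRG1, so it says little about the other markers. Of 5 neutrophil markers S100a9, Mpo and Elane had no count in any library. Of 5 lymphocyte markers Cd3e, Cd4, Cd8a and Ms4a1 had none.

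LRG1-treated hepatocytes had more Plau mRNA and less Plat, Plaur, Plg, Serpinf2 and Serpine2 mRNA than the PBS controls. The 2 activators thus moved in opposite directions, with Plau 1.74-fold higher and Plat 3.03-fold lower. Serpinf2 was 2.16-fold lower, Plaur 1.42-fold lower, Plg 1.24-fold lower and Serpine2 1.16-fold lower. Serpinb2 had too few counts to be tested. All 6 tested genes passed an adjusted p of 0.05 (edgeR's quasi-likelihood test with Benjamini-Hochberg adjustment over all genes tested), where 51.4% of the 12301 genes tested did, 25.5% higher and 25.8% lower. The call of Serpine2 (adjusted p = 0.0405) was lost in 5 of 15 alternatives, among them DESeq2 and 3 fits without 1 library. The libraries of the 2 treatments did not overlap for any of the 6, as for 57.6% of all tested genes. Their median log2 fold change was -0.41, against 0.0093 for all tested genes. In bulk samples such as these, fewer cells of a type and less RNA per cell cannot be told apart.

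**Figure D1:**
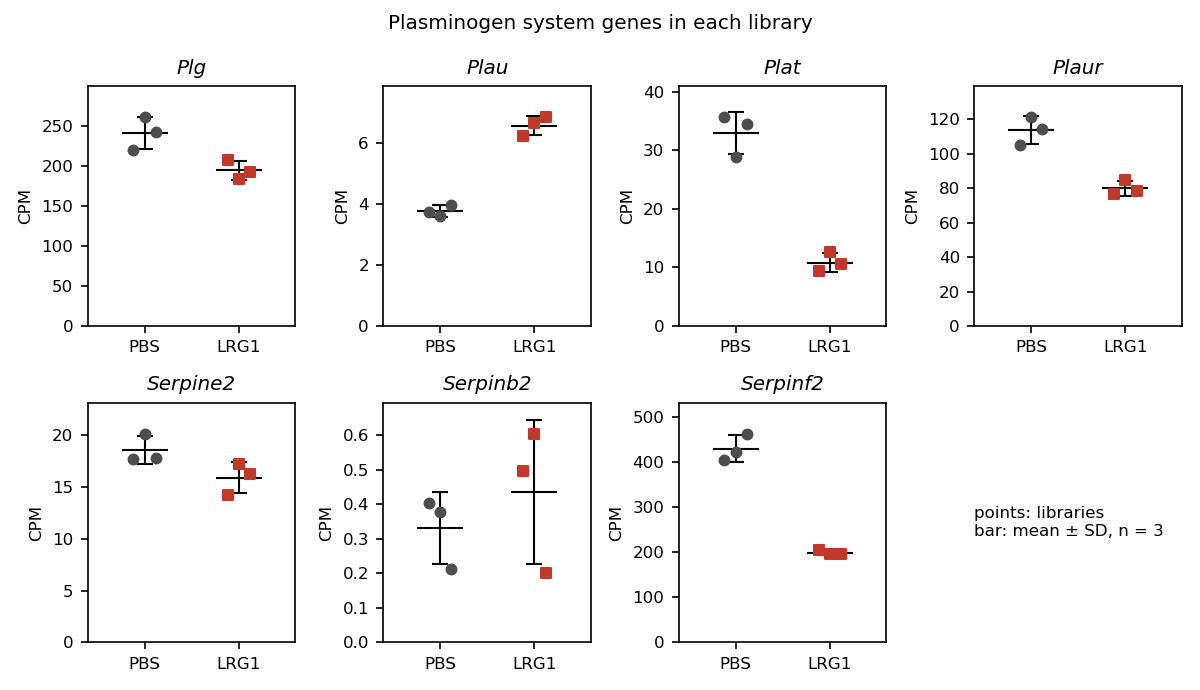
Level of each of the 7 genes in CPM (vertical axes, each starting at 0) in the 3 PBS libraries (grey circles) and the 3 LRG1 libraries (red squares), with the mean and SD in black. The LRG1 libraries lie above the PBS libraries for Plau and below them for Plg, Plat, Plaur, Serpine2 and Serpinf2, and the groups overlap for Serpinb2.

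The sequences just upstream of the start sites are shown for the genes that fell and have an entry in the RefSeq promoter table used here (GRCm38.p6), which matched 4 of the 7 symbols, Plaur, Serpine2, Serpinb2 and Serpinf2. Each is the 250 bases before the annotated start of transcription, 5′ to 3′ on the gene's strand. They lie at chr7:24462233-24462482 on the plus strand for Plaur, chr11:75439502-75439751 on the minus strand for Serpinf2 and chr1:79858666-79858915 on the minus strand for Serpine2. Capitals mark matches on either strand to TGAGTCA, the AP-1 motif, GGGCGG, the SP1 motif, CAGACA, a SMAD motif, or TATAAA, the TATA box.
Plaur: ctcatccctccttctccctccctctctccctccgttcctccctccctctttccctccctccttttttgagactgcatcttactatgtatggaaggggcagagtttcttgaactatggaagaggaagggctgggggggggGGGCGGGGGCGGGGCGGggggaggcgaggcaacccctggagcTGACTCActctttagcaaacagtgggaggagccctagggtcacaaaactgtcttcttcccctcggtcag
Serpinf2: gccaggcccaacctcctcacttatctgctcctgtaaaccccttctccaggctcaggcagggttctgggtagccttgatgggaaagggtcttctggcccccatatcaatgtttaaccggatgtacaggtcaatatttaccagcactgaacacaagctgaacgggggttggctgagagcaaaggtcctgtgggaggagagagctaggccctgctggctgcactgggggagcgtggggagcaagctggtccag
Serpine2: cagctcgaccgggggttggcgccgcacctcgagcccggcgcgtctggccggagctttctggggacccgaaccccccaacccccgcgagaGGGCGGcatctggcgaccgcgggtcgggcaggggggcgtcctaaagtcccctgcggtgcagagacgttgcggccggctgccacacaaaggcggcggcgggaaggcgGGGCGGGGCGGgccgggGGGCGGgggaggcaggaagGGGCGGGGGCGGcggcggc

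The 3 upstream sequences differed in composition and in the motifs they hold. GC made up 59.6% of the Plaur sequence, 57.2% of the Serpinf2 sequence and 78.8% of the Serpine2 sequence, against a median of 52.4% over the 32851 entries of the table. The Plaur sequence has 1 match to the AP-1 motif, 69 to 63 bases before the start, and 3 matches to the SP1 motif between 111 and 95 bases before it, of which 2 share a base. Serpine2 has 6 matches to the SP1 motif, 2 of them also sharing a base, and none to the others. Of all entries, 4.46% hold the AP-1 motif, 32.7% the SP1 motif, 17.1% the SMAD motif and 12.4% the TATA box. No letters of the Serpinf2 sequence matched any of these motifs. A match is a description of letters, and no binding was measured in this study.

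Plasminogen itself fell by a small amount. Plg had 220, 260 and 242 CPM in PBS replicates 1 to 3 and 207, 184 and 192 CPM in LRG1 replicates 1 to 3. The highest LRG1 library, replicate 1, lay just below the lowest PBS library, also replicate 1. Means were 241 ± 20.1 and 194 ± 11.9 CPM (SD, n = 3 per group), a log2 fold change of -0.31 with an SE of 0.052 (edgeR adjusted p = 2.52e-05). Slc22a3, which the GENCODE annotation places across Plg on the opposite strand, had 1 count over all 6 libraries.

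Urokinase was scarce and rose. Plau had 74, 67 and 75 counts in PBS replicates 1 to 3 and 125, 154 and 136 counts in LRG1 replicates 1 to 3. As levels these were 3.74, 3.61 and 3.98 CPM against 6.22, 6.65 and 6.85 CPM. Every LRG1 library was well above every PBS library, and the values within each group were close. The log2 fold change was 0.80 (SE 0.13, edgeR adjusted p = 2.29e-05, 95% interval 0.52 to 1.07).

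Tissue-type plasminogen activator had the largest change of the 6 tested genes. Plat had 35.7, 28.8 and 34.5 CPM in PBS replicates 1 to 3 and 9.31, 12.6 and 10.6 CPM in LRG1 replicates 1 to 3. All PBS libraries were far above all LRG1 libraries, and PBS replicate 2 was the lowest of its group. The log2 fold change was -1.60 (SE 0.098, 95% interval -1.80 to -1.40, edgeR adjusted p = 1.76e-12).

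Endothelial cells are a well-known source of tissue-type activator. Of 7 tested endothelial markers, Stab2 and Lyve1 fell and none rose, while Pecam1, Cdh5, Kdr, Tek and Fcgr2b did not pass. Over all tested genes the shares were 25.5% higher and 25.8% lower. The 8 listed endothelial markers summed to 42.3 to 45.2 CPM in PBS libraries and 36.0 to 40.1 CPM in LRG1 libraries. Stab2 fell from 6.54 ± 0.305 to 3.21 ± 0.190 CPM and Lyve1 from 3.23 ± 0.966 to 1.45 ± 0.192 CPM (SD, n = 3 per group). Cdh5, which encodes VE-cadherin, had 16.1 ± 0.447 CPM in the PBS group against 17.0 ± 1.22 CPM in the LRG1 group (SD, n = 3 per group). The part of these cells in the level of Plat was not tested.

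The urokinase receptor fell while its ligand rose. Plaur, a membrane-anchored protein without a cytoplasmic part, had 105, 121 and 115 CPM in PBS replicates 1 to 3 and 76.5, 84.6 and 78.6 CPM in LRG1 replicates 1 to 3. The 2 sets of libraries were clearly apart. Their means were 114 ± 8.13 and 79.9 ± 4.18 CPM (SD, n = 3 per group), with a log2 fold change of -0.51 (SE 0.052, edgeR adjusted p = 1.75e-08).

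Macrophages also make urokinase and its receptor. Among 7 tested macrophage and Kupffer cell markers, Marco rose, Cd5l and Cd68 fell, and Emr1, Clec4f, Csf1r and Lyz2 did not pass. Over all tested genes 25.5% were higher and 25.8% lower. The 9 listed markers summed to 224 to 270 CPM in PBS libraries and 184 to 209 CPM in LRG1 libraries, nearly all of it Cd68, at 236 and 184 CPM on average. Clec4f, which is specific to Kupffer cells, was scarce, at 0.746 CPM in the PBS group against 0.936 CPM in the LRG1 group. Its summed counts were 43 and 59. Cd5l fell from 3.96 ± 0.517 to 1.93 ± 0.253 CPM, and Marco rose from 1.25 ± 0.223 to 2.02 ± 0.456 CPM (SD, n = 3 per group). Vsig4, also on the list, was not tested and went from 39 summed counts to 15. Timd4 was not tested either. The part of macrophages in the levels of Plau and Plaur was not tested.

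Alpha2-antiplasmin, the inhibitor of plasmin, fell. Serpinf2 had 404, 422 and 462 CPM in PBS replicates 1 to 3 and 204, 195 and 196 CPM in LRG1 replicates 1 to 3. The LRG1 libraries were close to each other and all below the PBS libraries. The log2 fold change was -1.11 (SE 0.045, 95% interval -1.21 to -1.02, edgeR adjusted p = 8.89e-16). Albumin, another secreted product of hepatocytes, stayed short of the threshold, at 19235 CPM in the PBS group against 18555 CPM in the LRG1 group (edgeR adjusted p = 0.292). Of 8 hepatocyte markers 5 fell and none rose, where 25.8% of all tested genes were lower and 25.5% higher. Tat was 7.69-fold lower, Cps1 4.32-fold, Apoa1 1.54-fold, Hnf4a 1.23-fold and Ass1 1.13-fold. Apob and Ttr, like albumin, were not past the threshold. The part of a general change in hepatocyte genes in the level of Serpinf2 was not tested.

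Protease nexin-1 was lower by an amount close to the spread between libraries. Serpine2 had 17.8, 20.2 and 17.8 CPM in PBS replicates 1 to 3 and 14.3, 17.2 and 16.3 CPM in LRG1 replicates 1 to 3. The groups did not overlap, but LRG1 replicate 2 was only slightly below PBS replicates 1 and 3. The log2 fold change was -0.22 (SE 0.087, 95% interval -0.40 to -0.038, edgeR adjusted p = 0.0405). That call was lost in edgeR fits that left out PBS replicate 2 (log2 fold change -0.16, adjusted p = 0.176), LRG1 replicate 1 (-0.15, 0.175) or LRG1 replicate 3 (-0.23, 0.0608). It was also lost with DESeq2 (adjusted p = 0.0756) and with scaling to total counts (edgeR adjusted p = 0.0595), and the adjusted p over 15 alternatives ran from 0.0226 to 0.176.

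Plasminogen activator inhibitor 2 was near the limit of detection. Serpinb2 had 8, 7 and 4 counts in PBS replicates 1 to 3 and 10, 14 and 4 counts in LRG1 replicates 1 to 3. The groups overlapped, with 4 counts in a library of each. The summed counts were 19 with PBS (exact 95% Poisson interval 11.4 to 29.7) and 28 with LRG1 (18.6 to 40.5), intervals that cover counting error only. The gene did not pass edgeR's filter on low counts. Without the filter no difference was detected, with a log2 fold change of 0.41 and a 95% interval of -0.58 to 1.40 (edgeR adjusted p = 0.552). In GENCODE it overlaps Serpinb10 on the same strand.

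**Figure D2:**
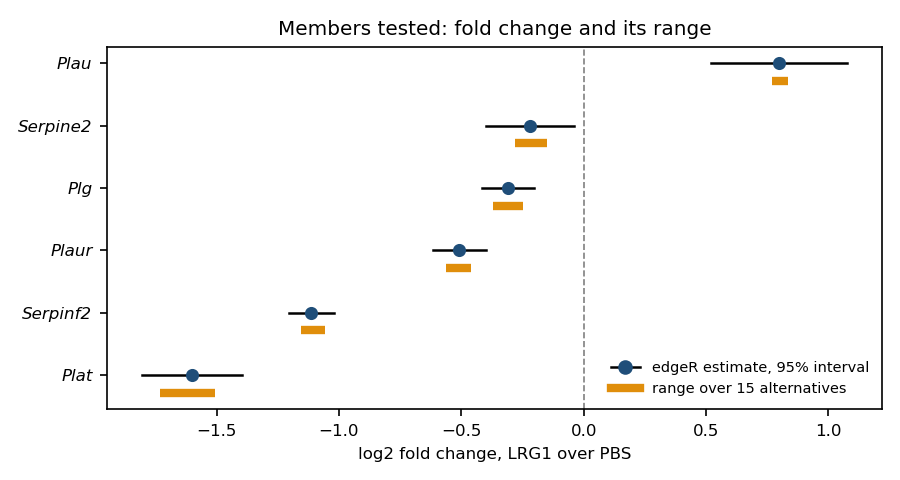
Log2 fold change of the 6 tested genes, LRG1 over PBS (horizontal axis), as the edgeR estimate with its 95% interval (blue points, black lines), and the range of the estimate over 15 alternative settings or sets of libraries (orange bars). Plau alone lies above 0, at 0.80, Plat is lowest at -1.60, and the interval of Serpine2 ends at -0.038.

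Levels of different genes were compared per length, as CPM per kb of the gene's protein-coding exons in GENCODE M21, a newer annotation than that of the counts. In PBS libraries Serpinf2 was the most abundant, at 182 to 208 CPM per kb, followed by Plg at 79.8 to 94.4 and Plaur at 69.8 to 80.5. The ranges of Plg and Plaur overlapped, so their order was not resolved with PBS. Plat followed at 11.4 to 14.1 CPM per kb, then Serpine2 at 8.04 to 9.12, Plau at 1.54 to 1.70 and Serpinb2 at 0.103 to 0.197, none of them overlapping the next.

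With LRG1 the order changed in the middle. Serpine2, at 6.47 to 7.80 CPM per kb, stood above Plat, at 3.69 to 4.99, while Plau reached 2.66 to 2.93. Plaur, at 50.8 to 56.1, no longer overlapped Plg, at 66.6 to 75.2. Serpinf2 remained first, at 87.7 to 91.8 CPM per kb, now much closer to Plg. Plat was thus the more abundant activator in both groups, by a wide margin with PBS and a narrower one with LRG1.

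**Figure D3:**
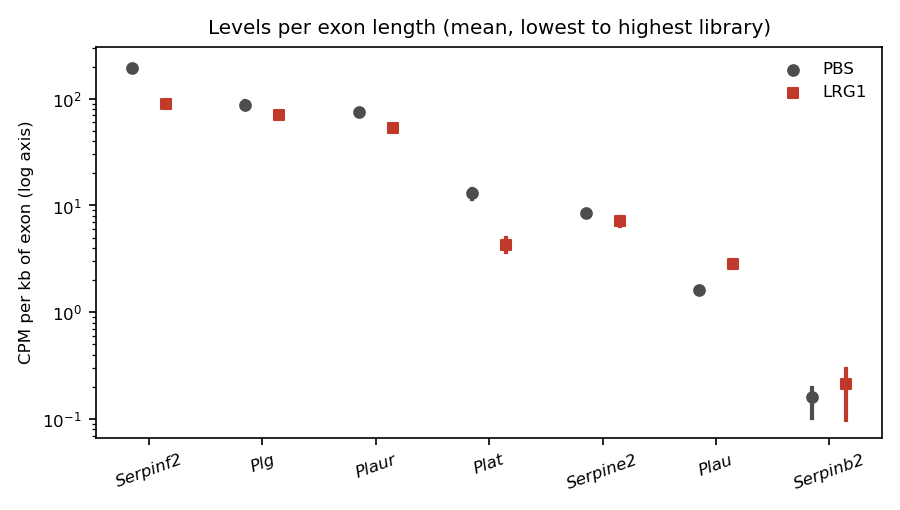
Level of each of the 7 genes in CPM per kb of exon (vertical log axis), ordered by the PBS mean, with PBS means as grey circles, LRG1 means as red squares and lines from the lowest to the highest library. Plat lies above Serpine2 with PBS and below it with LRG1, and Plau is below Plat in both groups.

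Ratios of 2 genes within a library do not depend on the scaling between libraries, so they show how the parts of the system moved against each other. The count of Plau as a ratio to that of Plat was 0.105, 0.125 and 0.115 in PBS replicates 1 to 3 and 0.668, 0.527 and 0.648 in LRG1 replicates 1 to 3. The ratio of urokinase to tissue-type activator was therefore several times higher in every LRG1 library, a difference of 2.41 on the log2 scale. Plau to its receptor Plaur went from a mean of 0.0334 to one of 0.0824, a log2 difference of 1.31.

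Activators and inhibitors were set against each other in the same way. Plat to Serpine2 was 2.01, 1.43 and 1.93 with PBS and 0.652, 0.732 and 0.650 with LRG1, so Plat had the higher count in each PBS library and Serpine2 in each LRG1 library. Plg to Serpinf2, the precursor of plasmin against the plasmin inhibitor, was 0.545, 0.617 and 0.524 with PBS and 1.02, 0.941 and 0.978 with LRG1. The mRNA of the inhibitor thus fell further than that of the precursor in each LRG1 library, a log2 difference of 0.80 in the ratio. Plau to Serpine2 differed by a log2 ratio of 1.02, whereas Plg to Serpine2 overlapped between the groups (log2 difference -0.084, exact two-sided permutation p = 0.600).

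Ratios did not overlap between the groups for 14 of the 15 pairs of the 6 genes. The pairs share genes, each of the 6 genes was already apart on its own, as were 57.6% of all tested genes, and no share over other pairs was computed, so this count is a description only. The exact two-sided permutation p of each of these 14 was 0.1, the smallest that 3 against 3 samples allow (0.107 after adjustment over the 15 pairs), so no pair could pass 0.05.

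**Figure D4:**
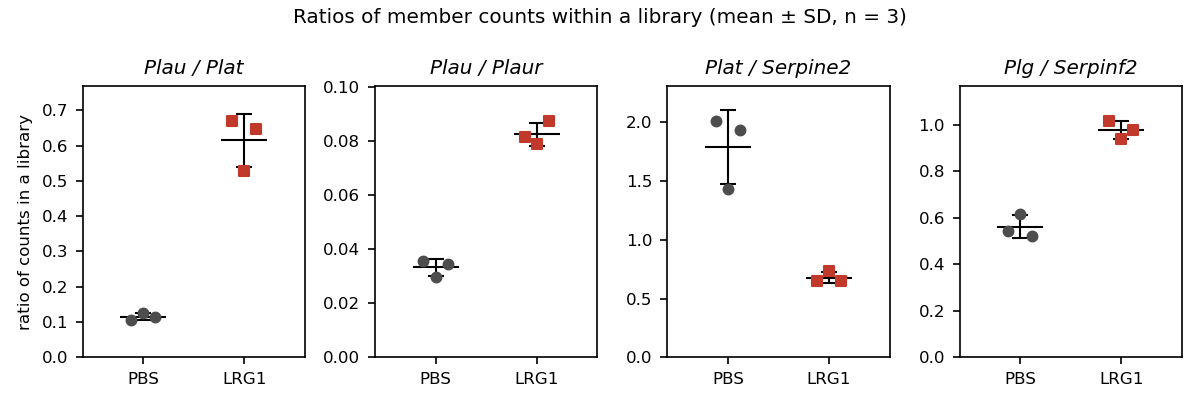
Ratio of the counts of 2 genes in the same library (vertical axes, each starting at 0) for Plau to Plat, Plau to Plaur, Plat to Serpine2 and Plg to Serpinf2, in PBS (grey circles) and LRG1 libraries (red squares) with the mean and SD. The groups are apart in all 4 panels, and Plat to Serpine2 crosses from above 1 to below 1.

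A further 34 genes of the system were taken from 5 lists of other inhibitors, plasminogen-binding proteins, clearance receptors and receptor partners, related proteases, and substrates. Of the 31 that could be tested, 14 rose, 13 fell and 4 did not pass (edgeR adjusted p threshold 0.05, against 25.5% higher and 25.8% lower among all tested genes). The same shares stand beside the counts of each list below. The median log2 fold change of the 31 genes was 0.087. GENCODE places a transcript on the opposite strand of Anxa2, F13a1, Fgg, Fn1, Igf2r, Itgav, Lrp1, Pzp and St14. It is not known whether the counting used the strand, so their counts may hold reads of both strands or lack reads in the overlap. For Fn1, Igf2r and Pzp the opposite gene was itself counted, so there reads in the overlap may be lost. Itgam and Klkb1 each overlap another protein-coding gene model on the same strand.

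Among 6 tested inhibitors besides those above, 1 rose, 3 fell and 2 did not pass. Serpina5, the protein C inhibitor, which also inhibits urokinase, had 3.09, 3.88 and 4.03 CPM in PBS replicates 1 to 3 and 56.7, 48.8 and 57.4 CPM in LRG1 replicates 1 to 3. It was 14.8-fold higher, a log2 fold change of 3.89 (SE 0.10, edgeR adjusted p = 2.15e-19). Cpb2, a carboxypeptidase that slows fibrinolysis by removing the lysines to which plasminogen binds, fell from 553 ± 17.1 to 375 ± 9.07 CPM (SD, n = 3 per group). The broad protease trap Pzp and the C1 inhibitor gene Serping1 also fell, by less than 0.5 on the log2 scale, and Hrg and Serpini1 did not pass. A2m had 4 counts in all and was not tested.

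Of 4 tested plasminogen-binding surface proteins, 2 rose and 1 fell. Annexin A2 (Anxa2) and S100a10 form a complex that binds plasminogen and tissue-type activator, and their mRNAs went opposite ways. Anxa2 rose from 1215 ± 31.0 to 1779 ± 18.9 CPM, and S100a10 fell from 262 ± 13.3 to 148 ± 4.01 CPM (SD, n = 3 per group). Itgam, an integrin chain of myeloid cells, rose from 19 to 56 summed counts. The receptor Plgrkt, under its older symbol 5033414D02Rik in the files, had 8.21 and 8.79 CPM and did not pass. Eno1 is listed at 0 in every library, and no value could be given.

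Of 8 tested clearance receptors and partners of the urokinase receptor, 7 rose, where 25.5% of all tested genes did. Vtn, the matrix and plasma protein vitronectin, fell. Lrp1, the endocytic receptor that removes complexes of activators with serpins, had 447, 406 and 366 CPM in PBS replicates 1 to 3 and 744, 712 and 674 CPM in LRG1 replicates 1 to 3. Its log2 fold change was 0.81 (SE 0.053, edgeR adjusted p = 6.68e-12). The integrin genes Itgav, Itgb5, Itgb3 and Itgb1, whose products bind vitronectin or associate with the receptor, had log2 fold changes of 0.72, 0.68, 0.64 and 0.59. Igf2r and Lrpap1 rose by less than 0.5 on the log2 scale. Mrc2, the urokinase receptor-associated protein, had 28 counts with PBS and 16 with LRG1 and was not tested.

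Related proteases were divided, with 2 of 6 higher and 4 lower. Plasma prekallikrein (Klkb1), whose active form can cut pro-urokinase, fell from 9.15 ± 0.787 to 3.35 ± 0.178 CPM, and factor XI (F11), its close relative in the contact system, rose from 59.2 ± 2.25 to 115 ± 7.41 CPM (SD, n = 3 per group). Of the transmembrane proteases, Tmprss2 fell from 8.83 ± 0.505 to 2.41 ± 0.312 CPM and hepsin (Hpn) had a log2 fold change of -0.61. F12 fell and St14 rose by less than 0.5 on the log2 scale.

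Of 7 tested genes of fibrin and matrix substrates, 2 rose, 4 fell and 1 did not pass. The 3 fibrinogen chains fell, Fga by 0.87, Fgb by 0.78 and Fgg by 1.08 on the log2 scale (edgeR adjusted p of 1.33e-11, 1.7e-12 and 4.49e-13). Fibronectin (Fn1), a matrix protein, rose from 3471 ± 169 to 7141 ± 361 CPM (SD, n = 3 per group). The subunits of factor XIII, which crosslinks fibrin and attaches alpha2-antiplasmin to it, went opposite ways. The carrier subunit F13b fell from 15.6 ± 0.652 to 8.90 ± 1.82 CPM, and the catalytic subunit F13a1 had 1, 0 and 0 counts in PBS replicates 1 to 3 against 84, 159 and 97 counts in LRG1 replicates 1 to 3. Hgf did not pass. Col1a1 and Acta2 rose among the 7 tested stellate cell and fibroblast markers and Reln fell, while Dcn, Pdgfrb, Pdgfra and Des did not pass. The shares over all tested genes were 25.5% higher and 25.8% lower. Lrat, also on that marker list, had 20 summed counts with PBS and 1 with LRG1 and was not tested. The list summed to 46.0 to 47.5 CPM with PBS and 144 to 153 CPM with LRG1, of which Col1a1 held 110 CPM on average, and the part of such cells in the level of Fn1 was not tested.

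**Figure D5:**
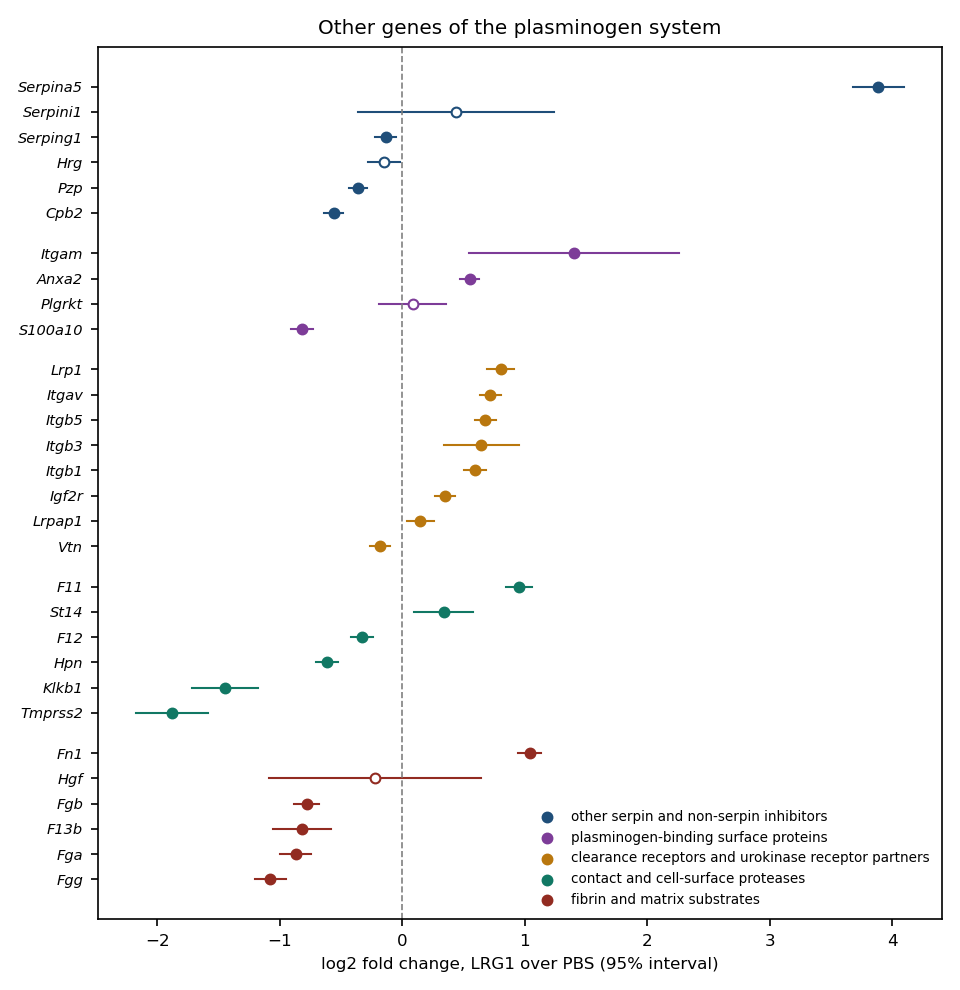
Log2 fold change, LRG1 over PBS, with its 95% interval (horizontal axis) for 30 of the 31 tested genes of the 5 lists, coloured by list, with filled points past the adjusted p threshold of 0.05 and open points not past it. F13a1 is left out because it had 1 count in the PBS group. Serpina5 lies at 3.89, clearance receptors and partners lie above 0 except Vtn, and the fibrinogen chains lie below 0.

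The genes with the most similar profiles were sought by the smallest root mean square difference between log2 CPM values centred on each gene's mean over the 6 libraries, among 11009 tested genes whose average log2 CPM was 1 or more. Plat had 5 genes within 0.1 log2 units, fewer than each of the other 5 tested genes. Nearest to it were the fatty acid desaturase gene Scd2 (0.067) and the cell cycle transcription factor gene E2f8 (0.073). Serpinf2 had 85 genes within 0.1, the nearest being Aldh4a1 (0.029) and Glud1 (0.049), which encode mitochondrial enzymes of proline and glutamate breakdown.

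Each of the other 4 genes had more neighbours than these. Plau had 134 genes within 0.1 log2 units, with Zbtb24 (0.019) and Eepd1 (0.023) nearest. Plaur had 287, with the integrin gene Itga1 (0.025) and Glyctk (0.036) nearest. Serpine2 had 470, led by Clcc1 (0.028) and Qsox2 (0.036), and Plg had 639, led by the clock gene Cry1 (0.026) and the fructokinase gene Khk (0.028). Within 0.2 log2 units Serpine2 had 5505 genes and Plg 4513, against 81 for Plat. A centred profile holds the difference between the treatments, so genes with a change of similar size lie close. Whether near genes share regulation was not tested.

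The genes on either side of each of the 7 were read from the RefSeq gene order of GRCm38.p6, a check by position that was added after the values had been seen. Of 14 flanking genes 9 could be tested, and 3 of these passed, where 51.4% of all tested genes did. Camk2g was higher, and Vcl and Ikbkb were lower. Serpinf1, the serpin gene beside Serpinf2, which encodes pigment epithelium-derived factor, had 307 ± 32.9 CPM in the PBS group and 290 ± 5.28 CPM in the LRG1 group (SD, n = 3 per group; log2 fold change -0.082, edgeR adjusted p = 0.208). Wdr81, on its other side, did not pass either (log2 fold change 0.090). Next to Plat, Ikbkb had a log2 fold change of -0.13 and Ap3m2 did not pass. Plau lies between Camk2g, at 0.25, and Vcl, the vinculin gene, at -0.53. The flanking genes of Serpinb2 had no count in any library.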

How the data were processed

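RNA-seq read counts of 6 libraries were used, 3 PBS and 3 LRG1, grouped by the sample titles. The authors deposited raw counts per gene symbol, made with bcl2fastq, TopHat2 and HTSeq on build mm9, per the submitters' processing notes. No source used here gives versions, annotation or strand setting. The 5 HTSeq summary rows stayed out, and 58.2 to 59.3% of all row totals were alignments that were not unique. Genes were filtered with filterByExpr (minimum count 10), which left 12301 genes with 99.95% of the counts. edgeR 4.0.16 in R 4.3.3 was run with TMM and the quasi-likelihood F test on treatment alone, tested on simulated counts. SEs come from the F statistic. Exact tests used scipy 1.17.1. Alternatives were other scalings and filters, DESeq2 1.42.0, limma-voom (limma 3.58.1), a robust fit, a replicate block and leaving out each library.

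The members and lists were chosen with earlier results of these data known. Named were all 7 members, listed genes past the threshold with an absolute log2 fold change of at least 0.5, and the 2 nearest profiles per tested member. Of the listed genes, 2 are not reported here, 1 among the other inhibitors and 1 among the cell type markers, and the counts of those lists leave them out. Gene symbols were matched exactly, and Plgrkt through its RefSeq synonym. Cholangiocyte markers summed to 4446 to 4630 CPM with PBS and 4325 to 4643 CPM with LRG1, nearly all Spp1, with Sox9 up and Krt19 down. Of 4 mesothelial markers, Wt1 and Upk3b had no count and the sum was at most 0.151 CPM.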

Additional observations from a re-analysis of the deposited data

How the results depend on the processing

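The 5 genes Plg, Plau, Plat, Plaur and Serpinf2 kept their direction and stayed past the threshold in all 15 alternatives. Their log2 fold changes ran from -0.37 to -0.25, 0.77 to 0.84, -1.73 to -1.51, -0.56 to -0.46 and -1.16 to -1.06. Serpine2 kept its direction but lost its call in 5 of 15, at -0.20 with total counts, -0.22 with DESeq2, and in 3 of the 6 fits without 1 library, which ran from -0.28 to -0.15. The fits without PBS replicate 1, PBS replicate 3 or LRG1 replicate 2 kept the call (edgeR adjusted p = 0.0374, 0.0447 and 0.0226). Fewer samples entered all 6 of these fits, and the cause of the 5 losses was not tested. The ratio of Plg to Serpine2 ran from a log2 difference of -0.21 to 0.015 without 1 library and turned positive without LRG1 replicate 2. The other 14 ratios kept their sign in all 8 alternatives. Listed genes past the threshold numbered 12 to 14 in either direction, and genes past it overall 2718 to 3391 higher and 2864 to 3278 lower.

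The labels give same-numbered samples only a number in common, and whether they shared a preparation is not stated. Their deviations from the group means had correlations of -0.12, -0.014 and -0.12, so they were not treated as pairs. With the replicate block, 2906 genes were higher and 2984 lower, all 6 members kept their calls (Serpine2 log2 fold change -0.22, edgeR adjusted p = 0.0374), and no sample correlated best with the other group's sample of its own number.

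Depth limited the precision for Serpinb2, whose libraries held 4 to 14 counts.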
